A study of Mus musculus with 3 samples.

Results

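The cells described here are the chondrocytes of the newborn mouse jaw joint that express cartilage collagen but little Col10a1, the collagen of hypertrophic cartilage. They come from a single-cell RNA library of mandibular condyles taken at birth (P0), in which 3999 of 4853 barcodes were kept. Kept cells had 500 or more genes and no more than 10% of UMIs from mitochondrial genes (UMIs are unique molecular identifiers, 1 per captured transcript). Members had at least 3 UMIs of Col9a1 and fewer than 10 UMIs of Col10a1 per 10000 UMIs of the cell. These Col10a1-low chondrocytes numbered 1189 of the 3999 kept cells, or 29.7% (95% exact binomial interval 28.3 to 31.2). Another 557 cells (13.9%, 12.9 to 15.0) passed the Col9a1 limit with 10 or more UMIs of Col10a1 and are called Col10a1-high chondrocytes, and 2253 cells (56.3%) fell below the Col9a1 limit. Of the 1746 cells that passed the Col9a1 limit, 68.1% (65.9 to 70.3) were members.

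The series holds 3 such libraries from wild-type C57BL6 mice with no treatment, with stages of embryonic day 16.5 (E16.5), birth (P0) and 13 weeks of age (13w), and 1 library per stage. Condyles of 7 to 20 mice were pooled within each age, so mice cannot be told apart and no difference below has a replicate check. The tissue was digested with enzymes, and living cells were sorted by a live and a dead stain before droplet capture, which acts on every share of cells given here. The library captures the 3′ ends of polyadenylated RNA, and the deposited values are raw UMI counts.

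In the mandibular condyle, cartilage grows beneath a fibrous surface: precursor cells become chondrocytes that lay down collagen II, collagen IX, collagen XI and aggrecan, and deeper chondrocytes enlarge, switch on Col10a1 and prepare the matrix for mineral. Indian hedgehog (Ihh), made by cells entering hypertrophy, and parathyroid hormone-like hormone (Pthlh), made nearer the surface, act on each other through the receptors Ptch1 and Pth1r and set the pace of that switch. Cells with cartilage matrix and little Col10a1 lie in this scheme between the precursors and the hypertrophic cells, and condylar cartilage is also known to express the fibrous collagen Col1a1.

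The members expressed the marker genes of their name. After each cell was thinned to 3000 UMIs, a Hapln1 UMI was found in 99% (98.2 to 99.5) of 1144 members, in 99.6% of 527 Col10a1-high chondrocytes and in 58.3% of 2204 cells below the Col9a1 limit. For Col11a2, a chain of collagen XI, the shares were 89.6% (87.7 to 91.3), 97.9% and 10% in the same order, and for Smpd3, a sphingomyelinase of skeletal cells, 71.5%, 65.3% and 6.26%. Thinning left out 45, 30 and 49 shallower cells. Summed over 1189 members, the chondrocyte markers took 25064 UMIs per 1000000 UMIs of the set (CPM), against 44443 CPM in Col10a1-high chondrocytes and 1523 CPM in cells below the Col9a1 limit. Osteoblast markers summed to 4385 CPM in members, 2802 CPM in Col10a1-high chondrocytes and 3991 CPM below the limit, most of it Col1a1, and the bone protein Bglap, whose counts may be shared with its near-identical copy Bglap2, stood at 2.07 CPM in members.

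Most markers of other cell types summed to low levels in the members. Endothelial markers summed to 4.02 CPM in members and 59.9 CPM in cells below the limit, macrophage markers to 6.38 and 43.5 CPM, and mural cell markers to 1.51 and 105 CPM. Schwann or neural markers were no lower in members, at 15.7 CPM against 12.4 CPM, nor were neutrophil markers, at 7.06 against 6.37 CPM. Within the members the neutrophil UMIs all lay in those with Col10a1 at 0 (32.7 CPM) and with Col9a1 of 3 to 10 per 10000 (35.6 CPM). Among kept barcodes, 1 held 2 or more neutrophil markers and fewer than 2 of any other blood, vessel or mural class. That barcode was a member, with 3061 UMIs in all and 6.53 UMIs of Col9a1 per 10000. Its part in the neutrophil sum was not tested. The macrophage marker Adgre1, the muscle genes Myog and Actc1 and the osteoclast gene Atp6v0d2 had no UMI in any member, and neither had Camp, 1 of 4 neutrophil markers. Barcodes with 2 or more markers of a blood, vessel or mural cell class and none of the other such classes were used to see how often other cells pass the Col9a1 limit. Of 23 endothelial barcodes 2 passed (8.70%, 1.07 to 28.0), and of 41 mural barcodes 3 passed (7.32%, 1.54 to 19.9), at median depths of 10112 and 9664 UMIs and a median Col9a1 of 0. Of 21 monocyte or macrophage barcodes, however, 15 passed (71.4%, 47.8 to 88.7), at a median depth of 35488 UMIs and a median Col9a1 of 16.3 per 10000, and so did all 3 osteoclast barcodes. Of these barcodes, 8 and 2 were members. Without any barcode holding 2 or more markers of either class, 1174 members were left, and 85 of the 87 named genes called against Col10a1-high chondrocytes kept their call. Of the kept barcode sequences, 14 also occurred among kept cells of E16.5 and 8 among those of 13w, and 1 barcode shared with 13w met the member rule in both libraries.

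Members had a median of 36590 UMIs and 5391 genes, close to the 35993 UMIs and 5218 genes of Col10a1-high chondrocytes and above the 11771 UMIs and 3094 genes of cells below the Col9a1 limit. Summed depth was 42509446, 20412604 and 31080164 UMIs in the same order, and the median mitochondrial share was 3.22%, 2.99% and 3.61%. Depth and membership move together against the cells below the limit, and what this adds to that contrast was not tested. Doublets were left in. A doublet score marked 74 members (6.22%), 44 Col10a1-high chondrocytes (7.90%) and 28 other cells (1.24%).

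**Figure D1:**
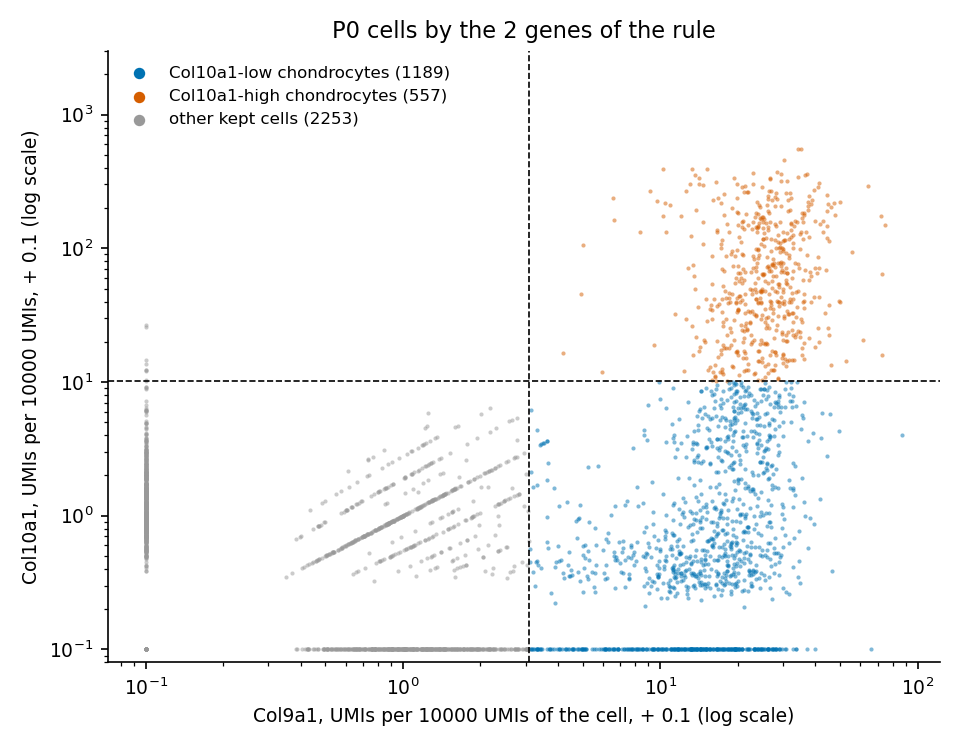
Each point is 1 kept P0 cell, placed by its Col9a1 (x axis) and Col10a1 (y axis) UMIs per 10000 UMIs, after adding 0.1, on log axes, with dashed lines at the limits of 3 and 10. The 1189 members fill the lower right, 557 Col10a1-high chondrocytes lie above them, and cells are continuous across both limits.

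Neither limit fell in a gap between cells, though some values differed across it. Col10a1 was at 0 in 316 members (26.6%), above 0 and below 3 UMIs per 10000 in 639 (53.7%) and between 3 and 10 in 234 (19.7%). Just inside the Col10a1 limit, 40 members with 8 to 10 UMIs per 10000 had 192 CPM of the matrilin gene Matn1, and just outside it, 20 cells with 10 to 12 had 219.8 CPM. For Lgals1, the gene of the lectin galectin-1, the same cells had 408 CPM inside and 609 CPM outside. At the Col9a1 limit, 57 members with 3 to 4 UMIs per 10000 had 1607 CPM of Col2a1, the main cartilage collagen, against 829.8 CPM in 114 cells with 2 to 3. Those 57 members had 3429.5 CPM of Lgals1, against 3086 CPM in the 114 cells outside. Other measures stood further apart at the limits. Median depth was 27859 UMIs in those 57 members and 9738 UMIs in the 114 cells outside, and the cell cycle genes summed to 282 CPM in the 40 members inside the Col10a1 limit and 1213 CPM in the 20 cells outside. Over all cells with 3 to 10 and with 10 to 30 UMIs of Col10a1 per 10000, however, that sum was 408 and 386 CPM. The plot of cells by both genes shows no gap at either limit.

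Members differed among themselves with Col10a1. From members with Col10a1 at 0, through those above 0 and those at 3 to 10, Col2a1 stood at 10756, 14278 and 22410.1 CPM, and in Col10a1-high cells of 10 to 30, 30 to 100 and over 100 UMIs per 10000 it stood at 25914, 28923 and 26704 CPM. Matn1 stood at 45.2, 81.6 and 227 CPM in the 3 member bins and at 270.4, 539.7 and 907 CPM in the 3 Col10a1-high bins. Ihh stood at 61.2, 79 and 176 CPM in member bins and 219, 270.5 and 629 CPM in Col10a1-high bins. These genes were thus graded within the members and on across the limit, though Col2a1 had its highest value at 30 to 100. Lgals1 was graded the other way, at 1654, 1221 and 466 CPM in member bins and 312, 273 and 78.6 CPM in Col10a1-high bins. Panx3, a hemichannel of prehypertrophic and early hypertrophic chondrocytes, had its highest value in the middle, with 547, 567 and 616 CPM in member bins, then 658, 563 and 387 CPM. Smpd3 had the same shape, at 468, 506 and 598 CPM in member bins and 649.6, 568 and 279.6 CPM in Col10a1-high bins. Median depth over the 6 bins was 31788, 39323, 35530.5, 43134, 39719 and 28420 UMIs. It was highest and lowest in the same bins as Panx3 and Smpd3 among these genes, and its part in their levels was not tested. Median Col9a1 per 10000, which the member rule used, was 13.1, 15.7, 20.1, 23.8, 25.9 and 26.1.

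**Figure D2:**
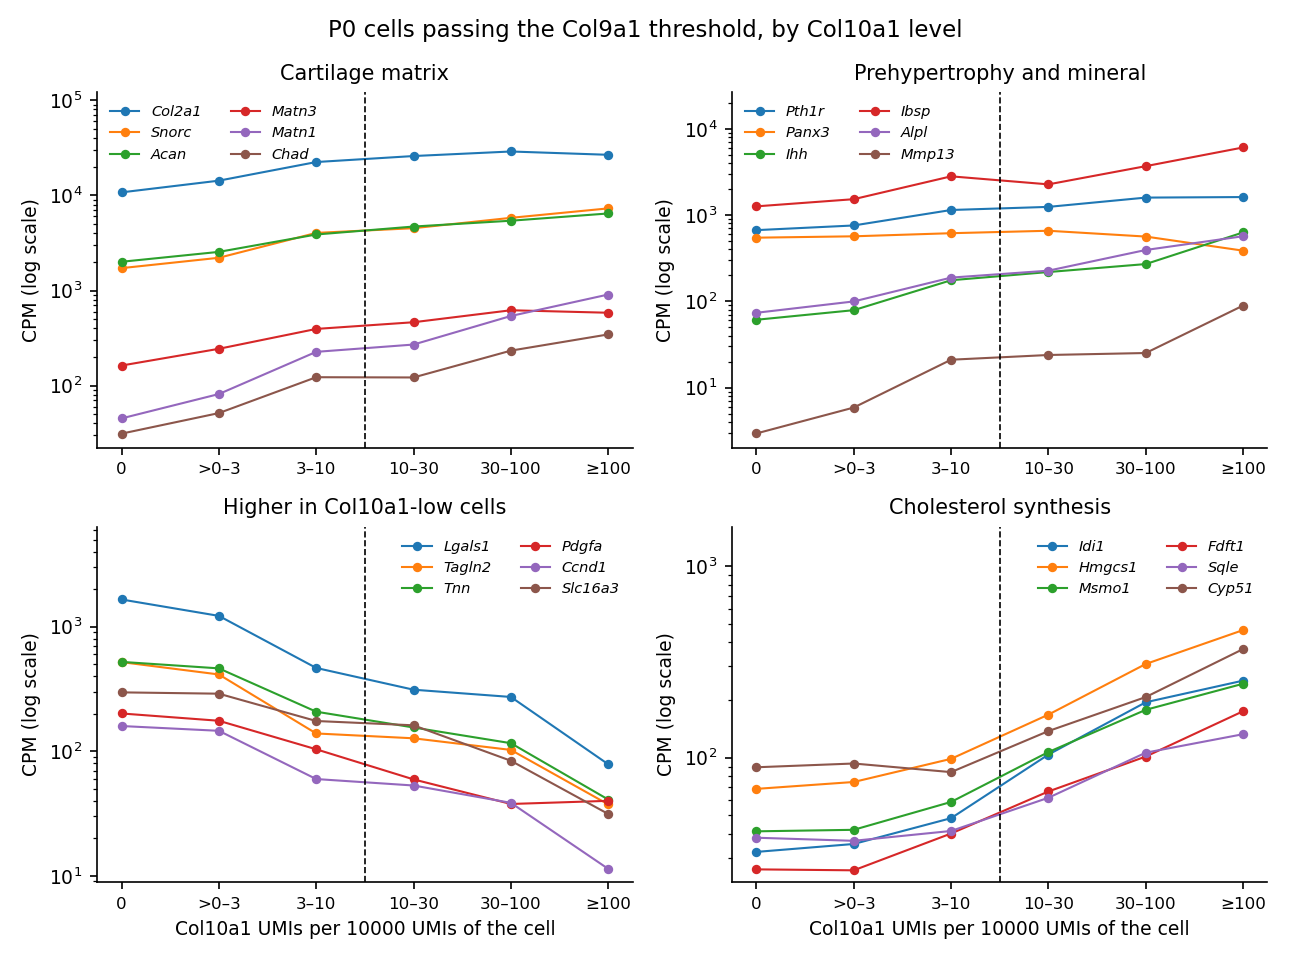
Level (CPM of summed UMIs, log y axis) of 6 genes in each of 4 panels, in cells binned by Col10a1 per 10000 UMIs (x axis), with 3 bins of members left of the dashed limit at 10 and 3 bins of Col10a1-high chondrocytes right of it. Matn1 and Ihh climb from left to right, Lgals1 descends and Panx3 has its highest value at 10 to 30.

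The plot by Col10a1 bin shows these gradients with further genes. Members also differed with Col9a1, the gene of the lower limit. The 270 members with 3 to 10 UMIs per 10000 had 350.1 CPM of Acta2, the smooth muscle actin gene, the 859 with 10 to 30 had 49.2 CPM and the 60 with 30 or more had 10.9 CPM. The growth factor gene Ptn stood at 909, 223 and 58.9 CPM, and the proliferation gene Mki67 at 107, 26.4 and 1.09 CPM in these bins. The bin of 30 or more held 1834032 UMIs in all, so its Mki67 level rests on very few UMIs. Summed fibroblast and mesenchyme markers stood at 3252, 2044 and 2363 CPM, and Acta2, Ptn and Mki67 all had their highest level in the members nearest the Col9a1 limit. The ligand gene Pdgfa was level across the bins, at 171, 165 and 201 CPM.

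Against Col10a1-high chondrocytes, the members had more transcript of cell cycle genes and of 5 of 22 fibrous matrix genes, and less of hypertrophy, cartilage matrix and sterol synthesis genes. Genes were compared where the set with more of them reached 10 CPM, and were called higher or lower where the sets differed at least 2-fold and the exact 95% interval of the ratio excluded 1. These intervals cover counting error only. Of 7500 genes measured, 349 were higher in members (4.65%) and 329 were lower (4.39%). Within 2-fold lay 91.0%, and the median log2 ratio was 0.11. With TMM factors, 311 were higher and 363 lower. Counts of called genes in the lists below are to be read beside the shares of 4.65% and 4.39%. Members and Col10a1-high chondrocytes were cut from the same library by Col10a1, so these contrasts describe the sets and test nothing.

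Among called genes that reached 100 CPM in 1 of the sets, Lgals1 had the highest ratio of members over Col10a1-high chondrocytes, at 1173 CPM against 237 CPM (log2 ratio 2.31, 2.27 to 2.35, with the 95% counting interval after the ratio here and below). Per cell, Lgals1 ranged in members over 0, 9.38 and 151 UMIs per 10000 (lowest, median, highest), and in Col10a1-high chondrocytes over 0, 0.640 and 76.1. Ranges of single cells overlapped, and a UMI was found in 97.1% of members and 74.9% of Col10a1-high chondrocytes. Among the next genes by ratio, 3 encode actin or actin-binding proteins. The tropomyosin gene Tpm2 stood at 164 CPM in members and 39.9 CPM in Col10a1-high chondrocytes (2.04, 1.93 to 2.15), Tagln2, which encodes the actin-binding transgelin-2, at 385 and 94.2 CPM (2.03, 1.96 to 2.10), and Acta2 at 107 and 28.4 CPM (1.92, 1.79 to 2.04). Cells below the Col9a1 limit had 2935 CPM of Lgals1, 402 CPM of Tpm2, 669 CPM of Tagln2 and 377 CPM of Acta2. Acta2 was no longer called when members needed 10 UMIs of Col9a1 per 10000 (log2 0.72). With the cells of highest doublet score left out the log2 ratios were 3.21 for Lgals1, 2.79 for Tpm2, 2.74 for Tagln2 and 3.41 for Acta2.

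Others of the genes with high ratios encode secreted growth factors and matrix proteins. Pdgfa, a ligand of the platelet-derived growth factor receptors, stood at 168 CPM in members, 45.3 CPM in Col10a1-high chondrocytes (1.89, 1.79 to 1.99) and 45.6 CPM in cells below the Col9a1 limit. It was thus higher in members than in either other set. Tnn, the gene of tenascin-W, had 428 CPM in members and 109.9 CPM in Col10a1-high chondrocytes (1.96, 1.90 to 2.02), the secreted Angptl2 165 and 50.3 CPM, and Lrrc17 111 and 31.5 CPM. Ptn, which encodes the heparin-binding pleiotrophin, had 352 CPM in members and 109.7 CPM in Col10a1-high chondrocytes (1.68, 1.62 to 1.75), with 2969 CPM below the limit, and its ratio of members over Col10a1-high chondrocytes fell just short of a call when members needed 10 UMIs of Col9a1 (0.99). The lipid-binding gene Fabp5, the LIM protein gene Crip1 and the cyclin gene Ccnd1, which drives entry into the cell cycle, completed the genes named by ratio, with log2 ratios of 2.02, 1.78 and 1.86.

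Among genes lower in members, several encode matrix, mineral or signalling proteins. Matn1, a matrilin of cartilage, stood at 101 CPM in members and 544 CPM in Col10a1-high chondrocytes (-2.43, -2.48 to -2.38). A Matn1 UMI was found in 41.5% of members and 92.3% of Col10a1-high chondrocytes, and after thinning to 3000 UMIs in 16.1% (14 to 18.3) and 61.9% (57.6 to 66). Noggin (Nog), a secreted BMP antagonist, stood at 28.5 CPM in members and 111 CPM in Col10a1-high chondrocytes (-1.96, -2.06 to -1.86), and it was graded within the members, at 9.92, 21.7 and 71.3 CPM in the bins of Col10a1 at 0, above 0 and at 3 to 10. Fam20c, a Golgi kinase that phosphorylates secreted mineral matrix proteins, had 18.3 and 121 CPM (-2.72, -2.84 to -2.61). Ddit4l, an inhibitor of mTOR signalling, had 30 CPM in members and 255 CPM in Col10a1-high chondrocytes (-3.09, -3.18 to -3.00), and the tetraspanin gene Tspan13 11.8 and 100.5 CPM (-3.09, -3.24 to -2.95). The kinase gene Wnk4, the transcriptional co-regulator gene Cited2, the autotaxin gene Enpp2, the cartilage protein gene Mia and the transmembrane protein gene Crim1 had log2 ratios of -2.74, -2.48, -2.24, -2.19 and -2.11. At E16.5, all 10 of these genes were likewise lower in Col10a1-low than in Col10a1-high chondrocytes.

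**Figure D3:**
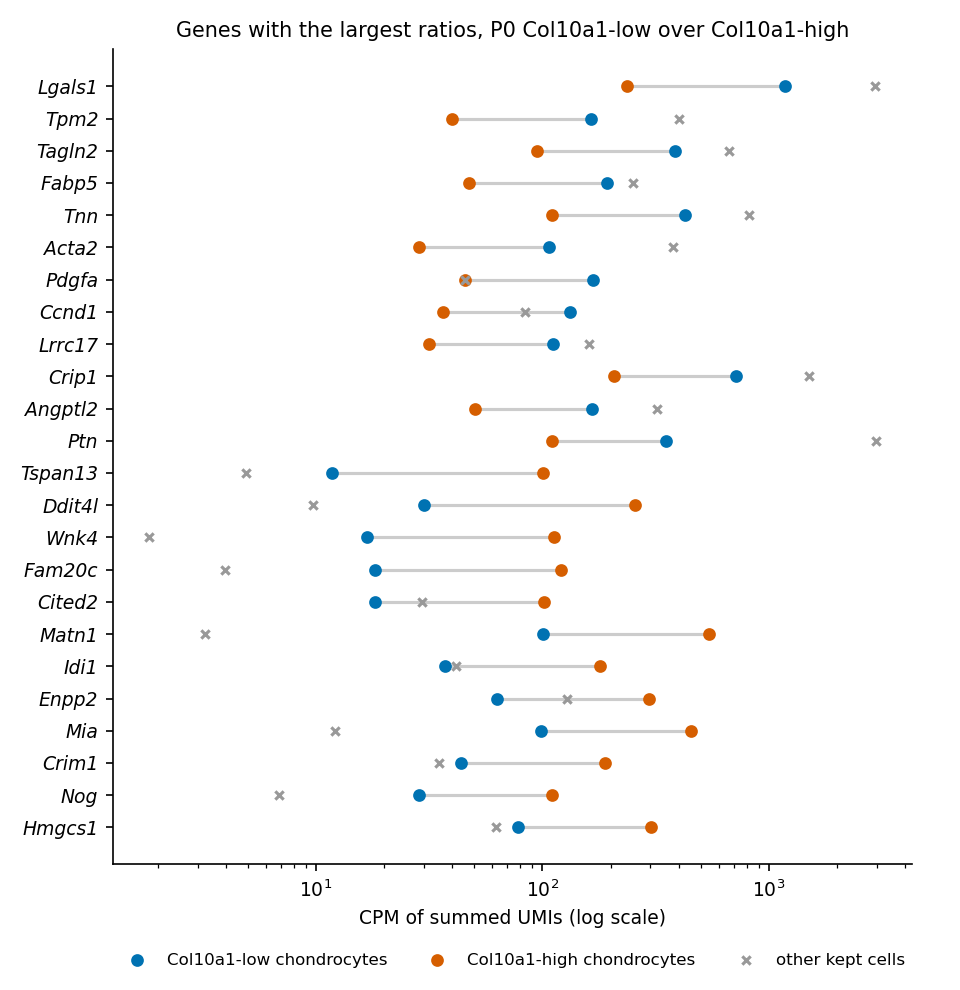
Levels of the genes with the 12 highest and 12 lowest ratios between members and P0 Col10a1-high chondrocytes, in CPM on a log x axis, for members (blue), Col10a1-high chondrocytes (orange) and cells below the Col9a1 limit (grey crosses). Lgals1, at the top, had 1173 CPM in members, and Tspan13 and Ddit4l had the lowest ratios.

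Cartilage collagens stood at lower values in members than in Col10a1-high chondrocytes apart from Col27a1, and none of the differences reached 2-fold. Of 6 cartilage collagen genes besides Col9a1, 0 were higher and 0 lower in members, with a median log2 ratio of -0.74. Col2a1 had 15044 CPM in members and 27393 CPM in Col10a1-high chondrocytes (-0.86, -0.87 to -0.86), Col11a1 5689 and 8861 CPM (-0.64, -0.65 to -0.63), and Col9a3 2299 and 4123 CPM (-0.84, -0.86 to -0.83). Col27a1, a fibrillar collagen of cartilage, stood at 719 CPM in members and 695 CPM in Col10a1-high chondrocytes (0.05, 0.02 to 0.08).

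Cartilage matrix proteins were more often lower in members. Of 18 genes measured, 11 were lower and 1 higher, and the median log2 ratio was -1.09 beside 0.11 over all genes. Comp, the gene of cartilage oligomeric matrix protein, had 902 CPM in members and 2642 CPM in Col10a1-high chondrocytes (-1.55, -1.57 to -1.53), and Chad, the gene of chondroadherin, 60.5 and 225 CPM (-1.90, -1.97 to -1.83). Snorc, a cartilage proteoglycan gene, had 2445 and 5762 CPM (-1.24, -1.25 to -1.22), and Epyc, a small leucine-rich proteoglycan gene, 10.2 and 34.6 CPM. The aggrecan gene Acan lay at the threshold, with 2680.0 CPM in members and 5444 CPM in Col10a1-high chondrocytes (-1.02, -1.03 to -1.01). The exception in the other direction was Fmod, the gene of the collagen-organising fibromodulin, with 453 CPM in members and 204 CPM in Col10a1-high chondrocytes (1.15, 1.10 to 1.20). Snorc (-0.99) and Matn3 (-0.89) were no longer called when members needed 10 UMIs of Col9a1.

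Genes of hypertrophy and mineral were detected in the members at lower levels than in Col10a1-high chondrocytes. Of 21 measured, 12 were lower in members and 0 higher (median -1.16). Spp1, the gene of the mineral-binding osteopontin, stood at 1441 CPM in members, 4263 CPM in Col10a1-high chondrocytes and 92 CPM in cells below the Col9a1 limit (members over Col10a1-high -1.56, -1.58 to -1.55). Ibsp, the bone sialoprotein gene, stood at 1712, 3826 and 139 CPM in the same order, and Alpl, the phosphatase of mineral formation, at 111, 383 and 88.4 CPM. The sums of Ibsp and Spp1 were spread unevenly over single cells. On the scale of the Col9a1 limit, the median cell had 0.860 of Ibsp in members (highest 691) and 21.1 in Col10a1-high chondrocytes (highest 467). For Spp1 these medians were 3.59 and 23.5. After thinning, an Ibsp UMI was found in 41.5% of members and 82.5% of Col10a1-high chondrocytes, and a Spp1 UMI in 56.9% and 84.1%. The collagenase gene Mmp13 had 8.09 CPM in members and 40.8 CPM in Col10a1-high chondrocytes (-2.33, -2.52 to -2.15), Phex 7.74 and 37.9 CPM (-2.29, -2.48 to -2.10) and the osteocyte matrix gene Dmp1 1.53 and 10.3 CPM (-2.75, -3.17 to -2.34). Other genes of the list differed little between the sets. Panx3 had 572 CPM in members and 549.9 CPM in Col10a1-high chondrocytes (0.06, 0.02 to 0.09), and the matrix Gla protein gene Mgp, an inhibitor of mineral formation, 5723 and 5158 CPM (0.15, 0.14 to 0.16).

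Most transcription factors were not called, with Foxa2 alone lower in members and the chondrocyte master gene Sox9 level. Of 20 factors measured, 1 was lower and 0 higher (median -0.16), beside 4.39% lower and 4.65% higher over all genes. Foxa2, which acts with Foxa3 in hypertrophic differentiation in mice, had 16.3 CPM in members and 53.7 CPM in Col10a1-high chondrocytes (-1.73, -1.86 to -1.59). Foxa3 had 31.7 and 62.7 CPM (-0.98, -1.10 to -0.87) and Mef2c, which drives Col10a1 in mouse growth plates, 557 and 1059.8 CPM (-0.93, -0.95 to -0.90), both short of 2-fold. Sox9 had 577 CPM in members, 551 CPM in Col10a1-high chondrocytes and 233 CPM in cells below the limit, and Runx2 130.3, 165 and 125 CPM.

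In the loop of Ihh and Pthlh, the members held transcripts of the Pthlh receptor and the hedgehog receptor, less Ihh than Col10a1-high chondrocytes, and under 1 CPM of Pthlh. Ihh stood at 93.3 CPM in members, 343 CPM in Col10a1-high chondrocytes and 2.57 CPM in cells below the Col9a1 limit (members over Col10a1-high -1.88, -1.94 to -1.82). After thinning, 19.3% (17.1 to 21.7) of members and 56.7% (52.4 to 61) of Col10a1-high chondrocytes held an Ihh UMI. The receptor gene Pth1r stood at 811, 1487 and 182 CPM, in 83.7% (81.5 to 85.8) of thinned members and 95.1% of Col10a1-high chondrocytes. Pthlh itself stood at 0.847, 1.13 and 18.1 CPM, so that the ligand lay mostly among cells below the limit. The hedgehog receptor and target gene Ptch1 had 209.6 CPM in members and 131 CPM in Col10a1-high chondrocytes (0.68, 0.62 to 0.74, short of 2-fold), and the hedgehog effector gene Gli1 11.4 and 3.28 CPM (1.79, 1.42 to 2.19). Gli1 fell under 10 CPM in members of 10 or more Col9a1 UMIs and when cells with a UMI of Mki67 or Top2a were left out, which ended its call. The median log2 ratio of the 8 genes measured was -0.13, and it changed sign under some of the settings tried.

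BMP ligands split by gene. Of 21 BMP and TGF-beta genes, Bmp7 and Tgfbi were higher in members and Bmp2, Bmp6 and Nog lower (median 0.06, with a sign that changes under other settings). Bmp2 had 68.7 CPM in members and 236 CPM in Col10a1-high chondrocytes (-1.78, -1.85 to -1.71), and Bmp7 47.1 and 20.2 CPM (1.22, 1.07 to 1.38). The TGF-beta-induced matrix gene Tgfbi had 682 CPM in members and 279.6 CPM in Col10a1-high chondrocytes (1.29, 1.24 to 1.33). Among 18 Wnt pathway genes the transcriptional effectors went opposite ways. Tcf7 was higher in members, at 35.1 CPM against 8.18 CPM (2.10, 1.87 to 2.34), and Tcf7l2 was lower, at 59.8 CPM against 214 CPM (-1.84, -1.91 to -1.77). Frzb, a secreted Wnt antagonist of cartilage, was lower in members, at 100.1 against 304 CPM (-1.60, -1.66 to -1.55), and Wnt5b was lower and Dkk3 higher. Among 8 FGF genes, the feedback-linked Etv5 was higher in members (12.8 against 4.61 CPM) and the receptor gene Fgfr1 lay at the threshold (176 against 353 CPM), while Fgfr2 (124 against 70.8 CPM) and Fgfr3 (219 against 274 CPM), receptor genes of chondrocyte growth control, were not called. Of 18 growth genes of the IGF axis and imprinted loci, Igfbp4, Igfbp6 and the imprinted Mest (192 against 91.4 CPM) were higher in members, and Igfbp5, an IGF-binding protein gene, was lower (15.5 against 64.1 CPM, -2.04, -2.18 to -1.91). The Igfbp5 ratio is not stable: it was -0.56 when members needed 1 UMI of Col9a1 per 10000 and 0.39 with cells thinned to 3000 UMIs.

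The secretory and metabolic lists leaned towards the members in their medians, with few calls. Of 19 genes of the unfolded protein response, 3 were higher in members, namely Sdf2l1, Hyou1 and Creld2, all endoplasmic reticulum proteins, and 0 lower (median 0.68). The chaperone gene Hspa5 had 1161 CPM in members and 622 CPM in Col10a1-high chondrocytes (0.90, 0.87 to 0.93), short of 2-fold. Of 23 glycolysis and hypoxia genes, 3 were higher in members (median 0.49). These were the lactate transporter gene Slc16a3 (269.8 against 95.9 CPM, 1.49, 1.42 to 1.56) and the carbonic anhydrase genes Car9 (31.8 against 10.5 CPM) and Car12 (59.9 against 22.7 CPM). The angiogenic factor gene Vegfa was lower in members (10.5 against 21.9 CPM, -1.06, -1.25 to -0.86), a call lost with thinned cells (-0.75). Of 27 collagen processing genes, the cross-linking enzyme gene Loxl1 (52.2 against 18.3 CPM, 1.51, 1.35 to 1.67) and the prolyl hydroxylase gene P4ha3 were higher in members, and the median was 0.34. Of 23 genes of glycosaminoglycan synthesis, the hyaluronan synthase gene Has2 alone was called, lower in members at 20.9 against 57 CPM (-1.45, -1.58 to -1.32). Over all genes, 4.39% were lower in members.

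Cell cycle transcripts were higher in members than in Col10a1-high chondrocytes. Of 20 cell cycle genes measured, 15 were higher and 0 lower (median 1.72). Mki67 had 41.2 CPM in members, 10.3 CPM in Col10a1-high chondrocytes and 157 CPM in cells below the Col9a1 limit (members over Col10a1-high 1.99, 1.79 to 2.21). Birc5, a gene of cell division, had 48, 9.90 and 171 CPM, and Top2a, the topoisomerase gene of dividing cells, 54, 16.5 and 239 CPM. With cells thinned to 3000 UMIs, 127 of 1144 members held a UMI of Mki67 or Top2a, which is 11.1% (9.34 to 13.1). The share was 4.36% of 527 Col10a1-high chondrocytes and 22.1% of 2204 cells below the limit, and without thinning 29.9%, 22.1% and 33.1%. Over the 3 member bins of Col10a1 the thinned share was 10.8%, 11.9% and 9.05%, and over the 3 Col10a1-high bins 6.08%, 4.81% and 2.34%. By Col9a1, it was 22.7% of members at 3 to 10 UMIs per 10000 (17.7 to 28.4) and 8.15% at 10 to 30 (6.39 to 10.2). At 30 or more it was 1.82%, from 1 of 55 cells (0.05 to 9.72). Among members the share thus varied more along Col9a1 than along Col10a1. The median of the list was 0.98 when members needed 10 UMIs of Col9a1, and -0.22 when cells with a UMI of Mki67 or Top2a were left out of both sets. Of the D cyclins and CDK inhibitors, Ccnd1, Ccnd2 (67.3 against 28.6 CPM) and Cdkn2c were higher in members, 3 of 12, and Cdkn1a, the p21 inhibitor gene, had 281 against 495 CPM (-0.82, -0.86 to -0.78), which was not called.

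Few fibrous matrix genes were called, all of them higher in members. Of 22 measured, 5 were higher in members and 0 lower (median 0.59), and the sum of the list was 24788 CPM in members and 21042 CPM in Col10a1-high chondrocytes. The 5 were Tnn, Aspn, Tnc, Postn and Col12a1. The tenascin-C gene Tnc had 242 CPM in members and 85.1 CPM in Col10a1-high chondrocytes (1.51, 1.43 to 1.58), the periostin gene Postn 752 and 298 CPM (1.34, 1.30 to 1.38) and the fibril-associated collagen gene Col12a1 1084 and 494 CPM (1.13, 1.10 to 1.16). Aspn, the asporin gene, had 39.6 and 13.4 CPM (1.56, 1.38 to 1.75), and both Aspn (0.67) and Tnc (0.94) lost their call when members needed 10 UMIs of Col9a1. Col1a1 had 4027 CPM in members, 2583 CPM in Col10a1-high chondrocytes (0.64, 0.63 to 0.65) and 3907 CPM in cells below the limit (members over these 0.04, 0.03 to 0.05). Beside these groups, fibroblast and mesenchyme markers summed to 2297 CPM in members, 1339 CPM in Col10a1-high chondrocytes and 6525 CPM below the limit, and their part in the result was not tested.

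Sterol synthesis genes were lower in members than in Col10a1-high chondrocytes. Idi1, which makes an isoprenoid building block of cholesterol, had 37.2 CPM in members and 179.7 CPM in Col10a1-high chondrocytes (-2.27, -2.36 to -2.19), and Hmgcs1, an early enzyme of the pathway, 77.9 and 302 CPM (-1.95, -2.01 to -1.89). Because these genes came up among the 12 with the lowest ratios, a list of 20 cholesterol synthesis genes was assembled after their values were seen, and it is description only. Of 19 measured, 13 were lower in members and 0 higher (median -1.32), and the sum of the list was 1051 CPM in members and 2263 CPM in Col10a1-high chondrocytes. Msmo1, a demethylating step, had 45 against 171 CPM (-1.93, -2.01 to -1.85), and Cyp51, a lanosterol demethylase gene, 90.7 against 225 CPM (-1.31, -1.37 to -1.25). Over the 3 Col10a1 bins of the members the sum was 1112, 1039 and 1019 CPM, and in the 3 Col10a1-high bins it was 1462, 2285 and 3263 CPM. Among members it differed with Col9a1, at 1414 CPM in those with 3 to 10 UMIs per 10000, 971 CPM with 10 to 30 and 785 CPM with 30 or more. At the Col10a1 limit it stood at 1351 CPM just inside and 1412 CPM just outside. Against cells below the Col9a1 limit, 0 sterol genes were lower in members and 1, Dhcr7, was higher, of 19 measured (median 0.32). The sum was 768 CPM in those cells, against 1051 CPM in members.

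Since 13 sterol genes were lower together, their promoters were searched for TCACNCCAC, a form of the sterol regulatory element bound by SREBP factors, on both strands of the 250 bases before the start site. RefSeq promoters of build GRCm38.p6, which is not the build of the counts, held 16 of the 20 genes with 19 promoters, and Hmgcs1 alone carried the motif, as did 346 of all 32851 promoters (1.05%). No match says only that these letters are not in this window. The Hmgcs1 window lies at chr13:119690101-119690350 on the plus strand, and the match, in capitals, begins 137 bases before the start.
Hmgcs1 promoter, 5′ to 3′: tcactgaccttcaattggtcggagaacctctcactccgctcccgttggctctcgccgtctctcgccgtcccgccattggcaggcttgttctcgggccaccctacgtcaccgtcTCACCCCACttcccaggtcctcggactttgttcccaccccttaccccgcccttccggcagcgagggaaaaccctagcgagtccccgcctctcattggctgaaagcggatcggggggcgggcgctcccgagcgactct
A match describes the sequence and is not evidence of binding.

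Immediate early and heat shock genes, which tissue digestion is known to induce, differed between the sets too. Of 22 measured, 7 were lower in members and 0 higher (median -0.71), and their sum was 3711 CPM in members against 5299 CPM in Col10a1-high chondrocytes. The stress factor gene Atf3 had 50.3 against 159.9 CPM (-1.67, -1.75 to -1.59) and Egr2 29.6 against 84.7 CPM (-1.52, -1.62 to -1.41). Their part in the results above was not tested.

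**Figure D4:**
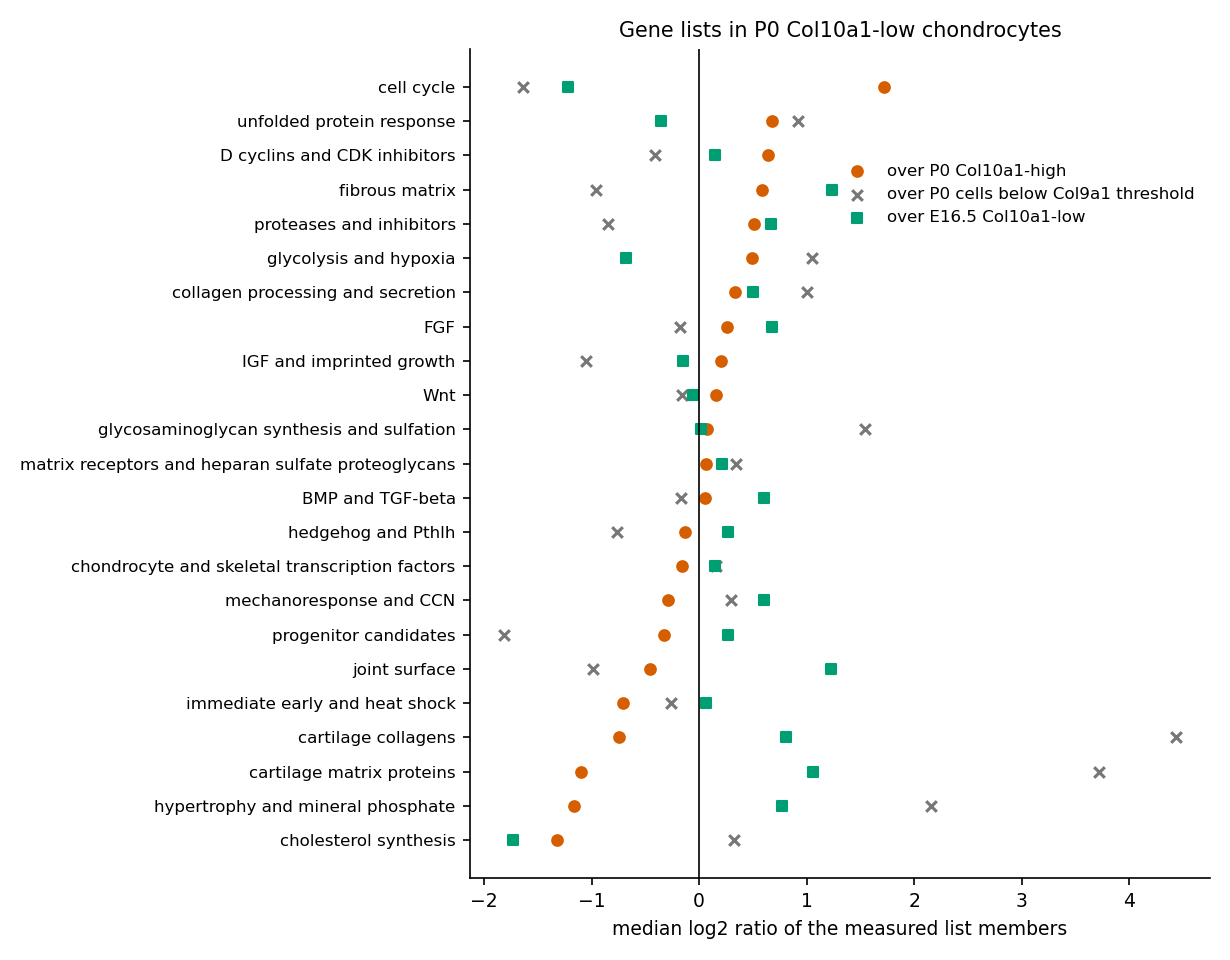
Median log2 ratio of each gene list (x axis, positive where members are higher) for members over P0 Col10a1-high chondrocytes, over P0 cells below the Col9a1 limit and over E16.5 Col10a1-low chondrocytes, with a line at 0. Cell cycle genes lie at 1.72 over Col10a1-high chondrocytes and at -1.63 and -1.22 in the other comparisons.

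Against the 2253 cells below the Col9a1 limit, members had far more cartilage transcript, and most progenitor candidate and cell cycle genes were lower in them. Of 8201 genes measured, 804 were higher in members (9.8%) and 1131 lower (13.8%), with a median log2 ratio of -0.08. The higher genes were 41.6% of the calls, but 57.8% (1144 higher and 834 lower) with TMM scaling, which moved the median to 0.17. All 6 cartilage collagens besides Col9a1 were higher in members (median 4.43), Col2a1 at 15044 CPM against 290.4 CPM (5.70, 5.67 to 5.73), and so were 15 of 17 cartilage matrix genes (median 3.72). The rule chose cells by Col9a1, so this describes the choice.

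Beside the collagens, members shared several genes with Col10a1-high chondrocytes that were low in cells below the limit. Prkg2, the cGMP-dependent kinase of growth plate chondrocytes, had 229.6 CPM in members and 4.67 CPM in cells below the limit (5.62, 5.38 to 5.87). Smim5, a small membrane protein gene, had 159 against 2.70 CPM (5.87, 5.56 to 6.20), Ncmap 107 against 2.12 CPM, Fam89a 122 against 3.38 CPM and the chondromodulin gene Cnmd, an inhibitor of vessel growth, 275 against 8.27 CPM. In Col10a1-high chondrocytes Prkg2 stood at 333 CPM, Smim5 at 133, Ncmap at 147, Fam89a at 85.4 and Cnmd at 590.2 CPM, and a Prkg2 UMI was found in 42.3% of thinned members and 56.4% of thinned Col10a1-high chondrocytes. Of 23 glycosaminoglycan synthesis genes, 14 were higher in members and 1 lower (median 1.54), among them the sulfate transporter gene Slc26a2 (336 against 35.9 CPM). Likewise, 14 of 28 collagen processing genes were higher and 4 lower, 8 of 19 unfolded protein response genes were higher and 0 lower, and 13 of 25 glycolysis and hypoxia genes were higher and 4 lower.

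Lower in members than in cells below the limit were some genes of IGF binding, of imprinted loci and of other matrix types. Igfbp3, an IGF-binding protein gene, had 4.30 CPM in members and 108 CPM below the limit (-4.65, -4.87 to -4.44), Igfbp5 15.5 against 270.4 CPM, and the imprinted Dlk1 and Meg3 11.8 against 195 CPM and 58.8 against 812 CPM. Of 21 genes of the IGF axis and imprinted growth, 11 were lower and Cdkn1c, the imprinted cell cycle inhibitor gene, was higher (4925 against 1109 CPM). The sum of that list was 10614 CPM in members and 10286 CPM below the limit. The basement membrane collagen gene Col4a1 had 14.1 against 289 CPM (-4.35, -4.47 to -4.23), the fibrillin gene Fbn2 13 against 266 CPM, Olfml2b 12.1 against 192 CPM and Aspn 39.6 against 639.9 CPM. Cell cycle genes were lower in 24 of 26 (median -1.63), and of 21 progenitor candidate genes 4 were higher and 13 lower, with Foxa2, Fgfr3, Nt5e and Cd200 the ones higher in members. With all cells thinned to 3000 UMIs, where 1 UMI of Col9a1 passes the limit, these ratios lay closer to 0, at -2.28 for Igfbp3, -2.24 for Col4a1 and -1.86 for Fbn2.

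Set against E16.5 cells chosen by the same limits, the P0 members had more fibrous and cartilage matrix transcript and less of sterol synthesis and the cell cycle. The E16.5 library held 765 such cells of 4562 kept (16.8%), with a median of 38424 UMIs. Stage and library cannot be told apart here. Of 7764 genes measured, 444 were higher at P0 (5.72%) and 500 lower (6.44%), with a median log2 ratio of -0.09. The side with more calls depended on scaling, with 507 higher and 426 lower under TMM factors. Equal weight per cell gave 408 and 645. Fmod stood at 453 CPM in P0 members and 59.8 CPM in E16.5 cells (2.92, 2.85 to 2.99), Spp1 at 1441 and 198 CPM (2.86, 2.82 to 2.90), and the proteoglycan gene Dcn at 142 and 22.6 CPM (2.66, 2.54 to 2.78, or 2.03 with thinned cells). The ligand gene Tgfb1 (101 against 20.4 CPM), Igfbp7, the cold-inducible RNA-binding protein gene Cirbp, the linker histone gene Hist1h1c and the annexin gene Anxa8 were the other genes with the highest ratios, at log2 2.31, 2.37, 2.62, 2.37 and 2.30.

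By group, 13 of 22 fibrous matrix genes were higher at P0 and 0 lower (median 1.23), with Col1a1 at 4027 CPM in P0 members and 1053 CPM in E16.5 cells (1.93, 1.92 to 1.95). For cartilage matrix genes it was 9 higher and 0 lower of 17 (median 1.06), with Acan at 2680.0 against 1145 CPM (1.23, 1.21 to 1.24). Of 6 cartilage collagens, 1 was higher, Col2a1 (15044 against 7030.0 CPM, 1.10, 1.09 to 1.10). Of 22 BMP and TGF-beta genes, 8 were higher and 0 lower at P0, among them the ligand genes Bmp2, Bmp6, Gdf5, Tgfb1 and Tgfb2. Of 18 hypertrophy and mineral genes, 8 were higher and 1 lower, while Ihh had 93.3 CPM in P0 members and 77.3 CPM in E16.5 cells (0.27, 0.20 to 0.35), which was not called.

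Lower at P0 were sterol and proliferation genes. Idi1 stood at 37.2 CPM in P0 members and 231 CPM in E16.5 cells (-2.63, -2.72 to -2.56), Acat2, another early enzyme of the pathway, at 18.1 and 112 CPM (-2.63, -2.74 to -2.51), and Msmo1 at 45 and 216 CPM (-2.26, -2.34 to -2.19). Of 20 sterol genes, 19 were lower and 0 higher, with a sum of 1051 CPM in P0 members and 3260.1 CPM in E16.5 cells (median -1.73). The glucose transporter gene Slc2a1 (33.7 against 132 CPM, -1.97, -2.06 to -1.88) was one of 7 of 24 glycolysis and hypoxia genes that were lower, with 1, Car9, higher. Dqx1, Erg28 and the endoplasmic reticulum gene Sdf2l1 had log2 ratios of -2.63, -2.03 and -1.93. Cell cycle genes were lower in 15 and higher in 0 of 26 (median -1.22), with the replication gene Pclaf at 23 against 118 CPM (-2.36, -2.47 to -2.26). The thinned share of cells with a UMI of Mki67 or Top2a was 11.1% in P0 members and 19.6% in E16.5 cells.

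The contrast between Col10a1-low and Col10a1-high chondrocytes was then taken in the other libraries with the same limits. At E16.5, with 765 and 249 cells, 1061 of 7714 genes were higher in Col10a1-low cells (13.8%) and 530 lower (6.87%). At 13w, with 1434 and 187 cells, 311 of 7028 were higher (4.43%) and 137 lower (1.95%). Of the 349 genes higher in P0 members, 275 were also higher at E16.5, 78.8% of the P0 list and 25.9% of the E16.5 list. Of the 329 lower genes, 206 were also lower at E16.5, 62.6% and 38.9% of the lists. Called in opposite directions were 2 genes, 1 of them Slc20a1, lower in P0 members and higher in Col10a1-low cells at E16.5. With 13w the P0 lists shared 94 higher genes (26.9% of the P0 list and 30.2% of the 13w list) and 66 lower genes (20.1% and 48.2%). Here 1 gene, again Slc20a1, was called in opposite directions.

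Single genes show what was alike and what was not. Taking E16.5, P0 and 13w in turn, the log2 ratio of Col10a1-low over Col10a1-high cells for Lgals1 was 2.61, 2.31 and 0.72, and for Tagln2 3.11, 2.03 and 0.76. Tnn (2.15, 1.96 and 1.61), Lrrc17 (1.74, 1.82 and 1.89), Angptl2 (1.84, 1.71 and 1.45) and Crip1 (2.09, 1.78 and 1.20) were called higher in Col10a1-low cells at all 3 stages. Pdgfa was called higher at E16.5 (2.45) and P0 (1.89) and stood at -0.87 at 13w, which was not called. Matn1 was lower in Col10a1-low cells at all 3 stages, with -2.75, -2.43 and -3.76, as were Ddit4l (-3.86, -3.09 and -2.06), Wnk4 (-3.09, -2.74 and -2.62) and Nog (-2.70, -1.96 and -1.56). Few cells of either 13w set held Matn1. After thinning, a Matn1 UMI was found there in 2 of 1380 Col10a1-low and 4 of 184 Col10a1-high cells. The sterol genes did not share a direction across stages: Idi1 had 0.97, -2.27 and -0.50 over the stages, and the list of 20 sterol genes had 3 higher and 0 lower in the E16.5 library (median 0.56), 0 higher and 13 lower in the P0 library (median -1.32), and 0 of either in the 13w library (median -0.25). None of these differences between stages was tested.

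**Figure D5:**
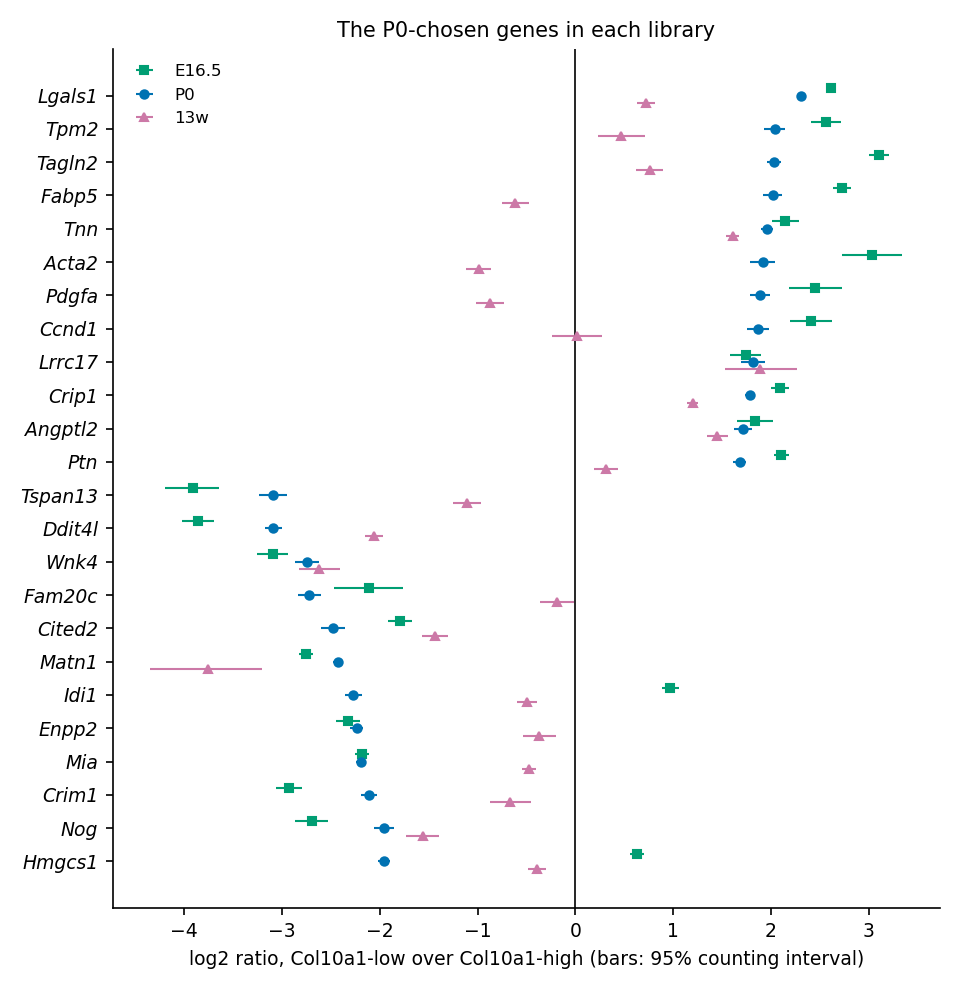
Log2 ratio of Col10a1-low over Col10a1-high chondrocytes (x axis, with 95% counting intervals) in the 3 libraries for the genes named by ratio at P0. Lgals1 and Matn1 point the same way at all 3 stages, and Idi1 and Hmgcs1 lie above 0 at E16.5 and below 0 at P0.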

How the data were processed

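The authors deposited raw UMI counts per gene and barcode. Per the file headers they come from Cell Ranger 6.1.2, the submitters' processing notes name the build GRCm39, and the counts are of 10x 3′ v3.1 libraries per the labels' protocols. Nothing had been normalised. The P0 counts held 98486931 UMIs in 4853 barcodes, and 85 barcodes under 500 genes and 769 above 10% mitochondrial UMIs were left out. The E16.5 and 13w counts held 103827875 and 115836876 UMIs.

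Counts were summed over the cells of each set and divided by the set's total (CPM), with numpy 2.4.6, pandas 2.3.3 and scipy 1.17.1. Ratios have exact conditional binomial intervals and shares exact Clopper-Pearson intervals, all at 95%. With 1 library per stage, cells are not replicates and no test was run. The scripts were tested on simulated counts. PCR duplicates were removed by UMI before deposit, and intervals cover counting error only. Where a gene and an antisense or near-identical gene overlap, no correction was made.

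The members and the 22 gene lists were chosen with earlier results of these data known. Named genes are the 12 highest and 12 lowest ratios at 100 CPM or more over Col10a1-high chondrocytes, 8 each way in the other comparisons, up to 4 per list, the cartilage collagen and hedgehog genes, and cell type markers. Predicted, mitochondrial, ribosomal, haemoglobin, immunoglobulin, Xist, Tsix and Y-linked genes were left out of that ranking. Bmp7, Cdkn1a, Cdkn1c, Col12a1, Fgfr3, Hspa5, Slc20a1 and the sterol genes beyond Idi1, Hmgcs1, Acat2 and Msmo1, and any gene named as 1 of a list's few calls, were named after their values were seen. Alternatives covered the limits of the rule, doublet removal (Scrublet through scanpy 1.11.5, whose own threshold marked 1 P0 cell and did not work, so the highest scores at 0.8% per 1000 cells were taken), TMM factors (edgeR 4.0.16, R 4.3.3), median-of-ratios factors, thinning and equal weight per cell. Leaving out barcodes with other cell classes, or with macrophage or osteoclast markers, or with Mki67 or Top2a, was added after the data were seen. Some genes are not reported here.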

Additional observations from a re-analysis of the deposited data

Results flagged for a closer look

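The log2 ratio of Col10a1-low over Col10a1-high chondrocytes had opposite signs at P0 and E16.5 for 5 genes named at P0, and the difference between the stages was not tested, since each stage has 1 library. Idi1 stood at -2.27 at P0 and 0.97 at E16.5, and 2 other sterol synthesis genes did alike, Hmgcs1 at -1.95 and 0.63 and Msmo1 at -1.93 and 0.87. Aspn stood at 1.56 at P0 and -0.52 at E16.5. Vegfa stood at -1.06 at P0 and 0.63 at E16.5. All 5 were called at P0 and fell short of 2-fold at E16.5. Only named genes were searched, and only where the E16.5 interval excluded 1 and a set reached 10 CPM there. Beyond that search, Slc20a1 of the hypertrophy and mineral list was called in opposite directions. It was lower in Col10a1-low cells at P0 and higher in them at E16.5 and 13w.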

How the results depend on the processing

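Of the 87 named genes called between members and Col10a1-high chondrocytes, 61 were still called with a minimum of 50 CPM, 69 when members needed 10 UMIs of Col9a1 per 10000, 80 with thinned cells and 80 without cells holding Mki67 or Top2a. Over the other settings 82 to 87 were. The 349 genes higher in members became 675 with Col10a1 below 3 against at least 30, 184 with at least 10 UMIs of Col9a1, and 735 with cells thinned to 3000 UMIs. For calls and ratios with thinned cells, the limits were applied again to the thinned counts. That gave 1357 members of 3875 cells (35.0%), which is not the main set. Shares of cells after thinning keep the main sets. A minimum of 1 CPM gave 909 higher and 817 lower, and 50 CPM gave 85 and 148, since the minimum sets which genes are measured. Against E16.5 the 500 lower genes became 819 with thinned cells. Igfbp5 reversed, to 0.39 with thinned cells, where 1 UMI of Col9a1 passes the limit. Beyond that construction the cause was not tested. The thinned share of members with Mki67 or Top2a, 11.1% at 3000 UMIs, was 5.05% at 1000 UMIs and 4.98% when 2 UMIs were required. All other counts lay within 1.5 times their main values, though TMM factors changed which direction held more calls in each contrast of the members. Depth limits genes under 10 CPM, which were not compared. No paired analysis was possible because each stage has 1 library, and for the same reason no replicate could be left out.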

Other observations

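Few matrix receptor and adhesion genes were called between members and Col10a1-high chondrocytes. Of 21 measured, Cdh2, Itga11 and Ddr2 were higher in members and Itga1 was lower (median 0.06, with a sign that changes under other settings). Over all 7500 genes measured, 4.65% were higher and 4.39% lower, with a median of 0.11. Cdh2, the N-cadherin gene, had 23.9 CPM in members and 6.66 CPM in Col10a1-high chondrocytes (1.85, 1.59 to 2.11, with the 95% counting interval). The collagen-binding integrin gene Itga11 had 16.7 CPM in members and 5.98 CPM in Col10a1-high chondrocytes (1.48, 1.20 to 1.77). Itga1, another collagen-binding integrin gene, had 31.5 CPM in members and 79.8 CPM in Col10a1-high chondrocytes (-1.34, -1.45 to -1.24), so these 2 integrin genes were called in opposite directions. The collagen receptor gene Ddr2 had 60.2 and 27.8 CPM, a call lost with thinned cells (0.89).

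Proteases divided too. The membrane protease gene Mmp14 (118 CPM in members against 53.8 CPM in Col10a1-high chondrocytes), the aggrecanase gene Adamts5 (49.9 against 22.2 CPM) and Htra1 were higher in members, and Mmp13 and Adamts1 (36.2 against 129 CPM, -1.83, -1.92 to -1.74) lower, of 13 measured (median 0.51). Of 11 mechanoresponse genes, the prostaglandin synthase gene Ptgs2 (17.4 against 76.8 CPM, -2.14, -2.27 to -2.02) and the matricellular gene Ccn1 were lower in members (median -0.29). Joint surface genes had 0 higher and 2 lower of 8 in members (median -0.45, or 0.03 with thinned cells), namely Crispld1 and the prostacyclin synthase gene Ptgis (238 against 631 CPM, -1.41, -1.45 to -1.37). The lubricin gene Prg4 stood at 0.400 CPM in members, 4.51 CPM in Col10a1-high chondrocytes and 12.4 CPM in cells below the Col9a1 limit. Against E16.5 Col10a1-low chondrocytes, 6 of 8 joint surface genes were higher in members and 0 lower (median 1.23). Progenitor candidate genes had 3 higher (Acta2, Gli1 and Sox11) and 2 lower (Foxa2 and Sox4) of 13 in members over Col10a1-high chondrocytes. The transcription factor gene Sox4 had 116 CPM in members and 305 CPM in Col10a1-high chondrocytes (-1.40, -1.45 to -1.34).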
